A study of Equus caballus with 6 samples.

Results

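The long primary-type piRNAs described here were sequences of 31 or 32 nt that began with U and carried a base other than A at position 10, counted from the 5′ end. They numbered 352556 of the 4936717 distinct sequences in a count table of small RNAs from horse testis, or 7.14%. Of these, 289840 were 31 nt and 62716 were 32 nt long, and 32 nt was the upper end of the table. Length and the bases at positions 1 and 10 chose them, and no read count did. They are called members below, and each goes by the identifier of its row in the table. By its name, the table is a list of piRNAs not recorded before. Shares of table reads, and remarks that a sequence is absent, are relative to that list.

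The groups were immature testis and mature testis of the Mongolian horse, with 3 small RNA libraries each. The labels give no age, genotype or treatment for either group. Nor do they state whether the libraries of a group stem from different animals, so that p-values cover the spread between these libraries alone, which may be technical. The table holds no protein-coding genes, so the stage of each testis could not be set against marker genes. Table totals were 1382083 to 2347351 reads in the immature and 4032042 to 4550970 reads in the mature libraries.

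piRNAs are small RNAs that PIWI proteins carry in germ cells, where they direct the silencing of transposons. Primary piRNAs are cut from long single-stranded precursors, mostly with U at the 5′ end, and their 3′ ends are trimmed to a length that depends on the PIWI protein that holds them, then methylated. In the ping-pong cycle a PIWI protein cuts a target opposite the tenth base of its guide, so that the new piRNA often carries A at position 10. A member has the first mark and lacks the second. In the testes of mammals, the piRNAs made before meiosis and those made during it come largely from different loci. The PIWI proteins that hold them differ only in part.

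The 6 members that were most abundant in mature testis among those called higher there under both scalings used below are shown first, because they show what the rule selects. Each sequence is printed 5′ to 3′ with T for U, and the capitals mark positions 1 and 10.
uniq_5212563: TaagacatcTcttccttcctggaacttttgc
uniq_4921673: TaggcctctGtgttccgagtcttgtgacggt
uniq_5011449: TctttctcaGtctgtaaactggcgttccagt
uniq_3557524: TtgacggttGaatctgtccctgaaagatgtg
uniq_1214700: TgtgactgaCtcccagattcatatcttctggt
uniq_4017871: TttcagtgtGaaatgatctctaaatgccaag

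The next sequences were among those with the largest read counts and were recognised as 5′ ends of structured RNAs. They are shown because they decide several averages over the members, and the capital marks the last base. The first 3 share the first 30 bases of tRNA-Glu-TTC, a glutamate tRNA, and the next pair match tRNA-Gly-GCC, a glycine tRNA, but for their first base. The last is the 5′ end of 18S rRNA, the RNA of the small ribosomal subunit.
uniq_4708970: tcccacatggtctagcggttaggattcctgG
uniq_4708991: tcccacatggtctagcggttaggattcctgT
uniq_5230164: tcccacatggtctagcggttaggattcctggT
uniq_3181825: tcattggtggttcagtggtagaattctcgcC
uniq_4072286: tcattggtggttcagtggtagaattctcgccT
uniq_2669417: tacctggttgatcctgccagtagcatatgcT

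The last set holds the 5 most abundant members of immature testis that matched no structured RNA used here. It is shown because 4 of them are nearly the same sequence, and the capital again marks the last base.
uniq_4595452: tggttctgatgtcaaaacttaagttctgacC
uniq_4595443: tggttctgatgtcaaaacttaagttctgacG
uniq_4595455: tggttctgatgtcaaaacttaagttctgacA
uniq_5223550: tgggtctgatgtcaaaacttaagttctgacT
uniq_72397: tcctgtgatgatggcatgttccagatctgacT

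Members took a larger share of the table in mature than in immature testis. They made up 4.49%, 4.92% and 3.81% of the reads in immature replicates 1, 2 and 3, and 13.5%, 16.2% and 13.8% in mature replicates 1, 2 and 3. Every mature library lay above every immature library, and the means were 14.5% ± 1.45 and 4.41% ± 0.559 (SD, n = 3, exact two-sided permutation p = 0.1). With 3 against 3 libraries, 0.1 is the smallest p that this test can give. Shares are relative to other sequences in the table, and in whole tissue fewer cells of a type and less RNA per cell cannot be told apart.

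Both lengths showed this order. Members of 31 nt made up 3.77% ± 0.528 of the reads in immature and 12.2% ± 1.25 in mature testis, and members of 32 nt 0.641% ± 0.0793 and 2.28% ± 0.238 (SD, n = 3, exact permutation p = 0.1 for each). Sequences of 30 nt with the same bases, just below the length limit, stood at 3.96% ± 0.301 and 15.7% ± 0.165. The share of 32 nt within the member reads did not separate the groups. It was 12.6%, 14.7% and 16.7% in the immature and 16.5%, 15.7% and 14.9% in the mature libraries (exact permutation p = 0.5).

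Set beside other lengths with the same 5′ bases, the members differed most against the shortest. For each read of 25 to 27 nt there were 0.144, 0.164 and 0.119 member reads in the immature and 1.11, 1.23 and 0.996 in the mature libraries (exact permutation p = 0.1). Against 29 to 30 nt the ratios were 0.408, 0.447 and 0.329 in the immature and 0.418, 0.551 and 0.439 in the mature libraries, and the groups overlapped (exact permutation p = 0.3). With structured RNA matches left out, as described next, these last ratios were 0.238, 0.313 and 0.27 against 0.378, 0.531 and 0.419, and they no longer overlapped (exact permutation p = 0.1). The sequences of 31 to 32 nt with U at position 1 and A at position 10 averaged 1.23% ± 0.18 of table reads over the immature and 5.39% ± 0.745 over the mature libraries (SD, n = 3, exact permutation p = 0.1). Without structured matches, each such read came with 2.41, 2.43 and 2.28 member reads in immature and 2.51, 2.48 and 2.57 in mature testis.

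A small number of members that matched structured RNAs held a large part of the reads, mainly in immature testis. A match was a gapless alignment of at least 20 nt with at most 2 mismatches to 1 of 5 abundant sequences of the table, which were recognised as 5′ ends of structured RNAs, among them tRNA-Gly-GCC, tRNA-Glu-TTC, 18S rRNA and the Y RNA RNY4. Only 617 members, or 0.175%, matched. They held 45.3%, 33.9% and 20.9% of member reads in the immature and 10.4%, 4.37% and 5.11% in the mature libraries. The immature values spread widely and lay above all mature ones. As a share of all table reads, the same matches made up 2.04%, 1.67% and 0.796% in the immature and 1.41%, 0.706% and 0.706% in the mature libraries, and these groups overlapped. Because 4 of the 5 sequences were picked, by rank, from the members most abundant in immature testis, this direction is no independent evidence, and no test is given.

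The structured RNAs differed among themselves. As a share of all table reads, matches to tRNA-Glu-TTC stood at 0.476%, 0.564% and 0.406% in the immature and 0.514%, 0.48% and 0.402% in the mature libraries, so the groups overlapped throughout. Matches to 18S rRNA averaged 0.063% ± 0.019 of table reads over the immature and 0.0148% ± 0.00183 over the mature libraries (SD, n = 3), and those to tRNA-Gly-GCC ranged from 0.0777% to 0.227% in the immature and from 0.135% to 0.768% in the mature libraries.

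The members of tRNA-Glu-TTC differed in their last base between the groups, while their sum did not separate them. Behind the same first 30 bases the table held 31 nt members ending in each of the 4 bases. Those ending in G (uniq_4708970) made up 83.4%, 54.4% and 69.1% of these 4 members in the immature and 19.96%, 30.5% and 20.5% in the mature libraries. Those ending in U (uniq_4708991) made up 5.12%, 29.2% and 14.5% in the immature and 63.9%, 51.9% and 65.6% in the mature libraries. The groups overlapped for neither base.

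In CPM (a sequence's share of all reads of the table, on the usual counts per 1e6 scale), uniq_4708991 stood at 187.4, 1078 and 439.7 in the immature and 2565, 1968 and 2148 in the mature libraries, and uniq_4708970 at 3053, 2011 and 2096 against 801.6, 1159 and 669.5. The 32 nt member uniq_5230164, which reads through the G and adds a U, went with the G-ended form, at 566.5, 967 and 484.8 CPM in the immature and 105.8, 93.8 and 71.4 CPM in the mature libraries. The 30 nt sequence without the added base stood at 1389, 1312 and 767.3 CPM against 1009, 793.1 and 570 CPM, and its groups overlapped. At the 18S rRNA end the U-ended member led in every library, with 66.1% to 81.1%, and the groups overlapped. These ends were looked at after their values had been seen, so they are given without a test.

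The glycine tRNA members rested on 1 library. uniq_4072286 stood at 1019, 269.2 and 449.3 CPM in the immature and 6026, 1053 and 1800 CPM in the mature libraries, and uniq_3181825 at 908, 159.8 and 97.8 against 1566, 196.7 and 339.9 CPM. Mature replicate 1 was highest for both. The mature to immature ratio of uniq_4072286 was 5.11 with all libraries and 2.46 without mature replicate 1. Its log2 fold change was 2.35 with table totals and -0.31 with TMM factors, so the direction turned with the scaling.

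Base composition of the member reads moved with the structured matches. G at position 10 made up 62.3%, 55.5% and 48.2% of member reads in the immature and 42.7%, 38.5% and 39.5% in the mature libraries (exact permutation p = 0.1). Without structured matches the order turned, with 32.4%, 33.8% and 35.3% in the immature and 36.1%, 35.7% and 36.3% in the mature libraries. GC content was 49.2% ± 1.16 in immature and 46.2% ± 0.0326 in mature testis with all members, and 46.2% ± 0.382 and 45.8% ± 0.0725 without structured matches (SD, n = 3, exact permutation p = 0.1 and p = 0.3).

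The same held for how concentrated the reads were. The 100 most abundant members of each library held 50.4%, 37.8% and 26.1% of its member reads in the immature and 21.4%, 15.8% and 17.5% in the mature libraries (exact permutation p = 0.1). Without structured matches they held 14.7%, 10.6% and 9.57% against 13.5%, 13.2% and 14.2%, and the groups overlapped. Drawn down to 33933 reads per library without structured matches, the immature libraries held 24269, 23439 and 25555 distinct members and the mature ones 17789, 17789 and 16885. Each immature library then held more distinct members than each mature one (exact permutation p = 0.1). The order turned when sequences read once in all were left out and structured matches kept, with 7486, 11991 and 13600 distinct members in the immature and 14740.2, 15607 and 14906 in the mature libraries at equal reads (exact permutation p = 0.1). With structured matches kept and 55747 reads drawn, the groups overlapped (exact permutation p = 0.6).

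The last base of members was U more often than that of the sequences just below them in length. Without structured matches, members of 31 nt ended in U in 38.1%, 45.1% and 40.3% of reads in the immature and 45.1%, 43.2% and 46.6% in the mature libraries. Members of 32 nt did so in 40.7%, 50.4% and 44.2% against 51.9%, 50.1% and 53.0%, and sequences of 30 nt in 32.6%, 39.8% and 36.5% against 36.2%, 33.9% and 37.0%. In each of the 6 libraries the share grew with length, by 7.09 percentage points ± 2.5 from 30 to 31 nt and by 5.28 ± 1.74 from 31 to 32 nt (SD, n = 6, exact sign-flip permutation p = 0.0313, adjusted 0.0391 over 5 comparisons). This p is the smallest that sign flips over 6 libraries can give, and the test joins both groups. The first step was 5.51, 5.27 and 3.83 points in the immature and 8.95, 9.31 and 9.64 in the mature libraries. The second was 2.59, 5.28 and 3.85 against 6.75, 6.9 and 6.33. Counting every 31 nt member once per library, whatever its reads, put the share ending in U at 37.5% to 42.9% in the immature and 38.7% to 41.2% in the mature libraries.

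Many of these last bases were not the base that stood there in the longer sequence. For 15299 members of 31 nt, 32 nt sequences with the same first 30 bases and at least 3 reads showed the next base, with at least 90% of those reads carrying the same one. Among their reads without structured matches, 32.4%, 41.3% and 39.4% in the immature and 40.0%, 39.0% and 38.0% in the mature libraries ended in another base than the longer sequence. The same share for 30 nt against 31 nt sequences was 21.5%, 29.3% and 27.7% in the immature and 26.3%, 27.1% and 24.2% in the mature libraries. The difference between the lengths was 12.4 percentage points ± 1.16 and was positive in 6 of 6 libraries (SD, n = 6, exact sign-flip permutation p = 0.0313, adjusted 0.0391). Unlike parts of the reads could be compared at the lengths, as given below.

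U was the most frequent of these other bases. Where the longer sequence had another base than U, members of 31 nt ended in U in 25.8%, 33.8% and 29% of reads in the immature and 31.5%, 28.6% and 32.5% in the mature libraries. The corresponding shares for A were 10.1% to 12.2% and 9.4% to 11.5%, and those for C and G were at most 7.25% in all 6 libraries. At 30 nt the shares ending in U were 12.4%, 21.1% and 17.2% against 17.5%, 16.4% and 16.9%. The groups overlapped at both lengths. Only 9.62% to 18.8% of the 31 nt reads in immature and 31.2% to 32.8% in mature testis had such a longer sequence, so these values stand for that part of the reads. At 30 nt, 23.6% to 39.9% of the reads in immature and 62.8% to 65.7% in mature testis had one.

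Most member reads had a shorter sequence with the same 5′ end in the same library, and the shares were higher in mature testis. Of the member reads, 72.0%, 77.5% and 64.6% in the immature and 87.9%, 87.9% and 89.1% in the mature libraries shared their first 25 nt with a shorter sequence (exact permutation p = 0.1). Thinned to 1382083 reads per library, and without structured matches, the shares were 51.3%, 61.3% and 55.2% against 81.5%, 82.5% and 83.6% (exact permutation p = 0.1). Table totals were then equal, but the mature libraries still held more member reads, 13.8% ± 1.63 of the table against 3.34% ± 0.546 without structured matches (SD, n = 3), and the part of this in the result was not tested. Among 32 nt member reads without structured matches, the first 31 bases were read as a 31 nt member in 22.4%, 38.4% and 26.1% of reads in the immature and 74.8%, 77.1% and 78.4% in the mature libraries (exact permutation p = 0.1), at the libraries' own depths.

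The length at which these 5′ families, defined by the first 25 nt, peaked differed between the groups once reads without a shorter relative were set aside. Those reads lie in families that peak at 31 or 32 nt by construction. Among member reads with a shorter relative and no structured match, 42.0%, 46.9% and 39.6% in the immature and 62.8%, 66.7% and 63.1% in the mature libraries lay in families with most reads at 31 or 32 nt, a count added after seeing the data (exact permutation p = 0.1). The groups did not overlap. These shares were at the libraries' own depths, and a tie between lengths went to the shorter one. The part of depth in the difference was not tested. Over all member reads without structured matches the shares were 70.3%, 64.8% and 66.3% against 67.8%, 70.9% and 67.3%, and the groups overlapped (exact permutation p = 0.5). With structured matches kept, the shares among reads with a shorter relative also overlapped (exact permutation p = 0.8). Without structured matches, families peaking at 26 nt held 5.75% to 6.63% of all member reads in the immature and 1.39% to 1.6% in the mature libraries. Those peaking at 27 nt held 7.04% to 7.83% against 2.0% to 2.67%. Families peaking at 30 nt held 5.29%, 10.2% and 7.27% in the immature and 17.9%, 16.2% and 18.2% in the mature libraries.

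The family of uniq_4921673 is an example from mature testis. Its sequences of 31 nt summed to 42.7, 105.2 and 29.4 CPM in the immature and 946, 1480 and 1171 CPM in the mature libraries, those of 30 nt to 169.6, 185 and 180.8 CPM and those of 29 nt to 256.8, 190 and 304.6 CPM in the mature ones. Behind its first 30 bases, 75.1% to 80.6% of the 31 nt reads in the mature libraries ended in U, which is uniq_4921673 itself. The family holds 20 members among 50 sequences. By contrast, neither the first 30 bases of uniq_5212563 nor the same stem with another last base was among the sequences analysed here. Its other lengths and changes inside its stem were not looked at.

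Members also lay beside one another along shared stretches. Of the 4115 members abundant enough to be tested, 831, or 20.2%, overlapped another tested member by at least 20 nt with another 5′ start. The same share over all sequences tested is not given here. The offsets between such starts were spread unevenly. There were 102 pairs at 1 nt, 87 at 2 nt, 112 at 3 nt, 57 at 4 nt and 36 at 5 nt. Another 78 lay at 6 nt, 49 at 7 nt, 52 at 8 nt, 59 at 9 nt, 39 at 10 nt and 32 at 11 nt. One stretch with 8 members at 5 starts is shown because it holds staggered starts and several last bases together. The capitals mark the 18 nt that all 8 share, and the starts lie 0, 3, 4, 12 and 13 nt from the first.
uniq_4309355: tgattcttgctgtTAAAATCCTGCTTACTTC
uniq_3103381: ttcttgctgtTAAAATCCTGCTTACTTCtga
uniq_4859557: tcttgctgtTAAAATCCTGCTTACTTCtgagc
uniq_4859549: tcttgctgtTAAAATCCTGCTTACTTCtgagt
uniq_3179835: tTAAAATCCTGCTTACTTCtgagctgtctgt
uniq_3324908: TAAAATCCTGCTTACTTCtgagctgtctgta
uniq_3324868: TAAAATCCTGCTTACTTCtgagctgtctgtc
uniq_3324881: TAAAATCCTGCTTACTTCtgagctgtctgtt

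Every start in this stretch falls on a T, as the rule requires. The 3 members that start last differ only in their final base, and the U-ended one led, with 41.6, 82.3 and 58.7 CPM in the mature libraries. The A-ended member stood at 5.32, 11.2 and 4.83 CPM and the C-ended one at 3.14, 10.4 and 8.13 CPM there. In the other pair that differs only in its last base the order was the reverse, with the C-ended uniq_4859557 at 9.66, 13.1 and 7.91 CPM and the U-ended uniq_4859549 at 6.04, 3.72 and 3.52 CPM in the mature libraries. Together the 8 members summed to 3.62, 8.95 and 3.42 CPM in the immature and 86.5, 146.8 and 112.3 CPM in the mature libraries.

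Complementary 5′ ends, the trace of ping-pong, were looked for as sequences of the same library whose first 10 nt were the reverse complement of a member's first 10 nt. By the rule members begin with U and lack A at position 10, so such a partner must carry A at position 10 and cannot begin with U. Without structured matches, 36.1%, 45.7% and 38.5% of member reads in the immature and 36.1%, 39.5% and 40.4% in the mature libraries had a partner. These shares were at the libraries' own depths, and the groups overlapped. Thinned to equal table totals, they were 36.1%, 36.7% and 37.5% against 22.8%, 23.3% and 23.25%, without overlap (exact permutation p = 0.1). Thinned windows shifted by 1 to 5 nt, given in the next paragraph, were lower in mature testis too. The lower share in mature testis was thus not particular to the 10 nt overlap. The values that follow in this paragraph are again at the libraries' own depths. Windows shifted by 1 to 5 nt, which may belong to any sequence, gave means of 53.1%, 62.0% and 54.7% against 50.8%, 49.4% and 49.3%. The excess at 10 nt was therefore negative in all 6 libraries, at -16.9, -16.4 and -16.2 percentage points in the immature and -14.7, -9.89 and -8.88 in the mature libraries (exact permutation p = 0.1). With structured matches kept it was -23.2, 2.04 and -13.8 against -16.2, -10.6 and -11.2, and the groups overlapped (exact permutation p = 0.9).

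The rule that chose the members bears on this excess, since it narrows the partners at 10 nt and not those of the shifted windows. Limiting all windows to partners without U at position 1, a choice made after seeing the data, removes none at 10 nt and lowers the shifted windows to 16.2% to 19.7%. The level of either excess is thus set in part by its construction and is not read as a trace of ping-pong. Sequences of 29 to 30 nt with the same 5′ bases were measured with that same limit. Thinned, their excess was 24.0, 23.3 and 24.1 points in the immature and 13.85, 16.4 and 14.3 in the mature libraries. Thinned in the same way and with the same limit, the members' excess was 19.9, 22.5 and 21.3 against 13.95, 14.5 and 14.6 points (exact permutation p = 0.1). The members' shifted windows behind this excess were lower in mature testis as well. Over shifts of 1 to 5 nt, their group means ran from 13.9% to 18.1% in immature and from 7.14% to 10.45% in mature testis. The part of this general fall in the difference in excess was not tested. The next comparison was at the libraries' own depths. Members minus the sequences of 29 to 30 nt gave -1.06 points ± 2.55, negative in 4 of 6 libraries (SD, n = 6, exact sign-flip permutation p = 0.375, adjusted 0.375 over 5 comparisons). Partner reads were 29 to 32 nt long in 28.2% to 29.2% of cases in the immature and in 56.8% to 59.1% in the mature libraries. All reads with A at position 10 and no U at position 1 stood at 27.3% to 28.8% and 58.9% to 60.3%, so partners had about the length of such reads in general.

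The leading members had few partner reads. All partners of uniq_5212563 together reached at most 1.45 CPM in any library, those of uniq_4921673 at most 1.37 CPM and those of uniq_5011449 at most 7.52 CPM, and uniq_3557524 had none among the sequences analysed here. uniq_4017871 had 45 partner sequences, which summed to 9.18, 13.1 and 12.7 CPM in the mature libraries against 262.1, 295.4 and 277.5 CPM of the member itself. Its most abundant partner, a sequence of 30 nt, is printed under it with the 10 complementary bases in capitals, and this partner stood at 2.17, 4.22 and 4.83 CPM in the mature libraries.
uniq_4017871: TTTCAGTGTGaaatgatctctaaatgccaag
uniq_4745522: CACACTGAAAgaatagctgatgagggtgtc

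Single members were tested with edgeR's quasi-likelihood test over all 31788 sequences that passed its filter on low counts, 4115 of them members. The filter keeps a sequence that is frequent in 1 group only, so counts over the tested members describe them and support nothing further. With table totals, 3911 tested members, or 95.0%, were called higher in mature testis at a Benjamini-Hochberg adjusted p under 0.05, where 77.7% of all sequences tested were called so. Another 154, or 3.74%, were called higher in immature testis, against 20.3% of all sequences tested. With TMM factors, which assume that most sequences keep their level, 527 members, or 12.8%, were called higher in mature testis. Another 197, or 4.79%, were called higher in immature testis, where all sequences tested gave 8.41% and 21.9%.

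The scaling moved all sequences together. The median log2 fold change, mature over immature, was 3.64 for the tested members and 3.15 for all sequences with table totals, and 1.12 and 0.62 with TMM factors. The members' median thus lay 0.49 above that of all sequences with table totals and 0.5 above it with TMM factors. Since a scaling moves members and other sequences alike, this agreement supports nothing further. The gap was 0.333 with the filter of 10 CPM in 3 libraries and 0.881 with that of 6 reads in all. It was 0.381 to 0.688 when 1 library was left out. Tested members without a structured match numbered 4044, of which 3906 were called higher in mature and 97 in immature testis with table totals. Of the 71 with a structured match, 5 were called higher in mature and 57 in immature testis. Because 4 of the 5 sequences used for matching were picked from the members most abundant in immature testis, this split is no independent evidence.

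The 527 members called higher in mature testis with both scalings belonged to 447 families and held 10.8% to 12.2% of member reads in the mature and 0.79% to 2.08% in the immature libraries. None of them matched a structured RNA, which also goes with how the sequences for matching were chosen. uniq_5212563, the leading one, stood at 35.5, 106.9 and 39.0 CPM in the immature and 1173, 1212 and 1219 CPM in the mature libraries. The mature libraries lay close together and far above the immature ones. Its log2 fold change was 4.31 ± 0.79 (SE, edgeR quasi-likelihood, Benjamini-Hochberg adjusted p = 1.99e-07, and 6.66e-09 to 0.0176 over the other settings, DESeq2 included).

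uniq_4921673 stood at 34.0, 79.2 and 21.9 CPM in the immature and 692.6, 1071 and 898.1 CPM in the mature libraries, a ratio of 19.7. uniq_5011449 stood at 13.8, 54.1 and 14.4 CPM against 405.4, 610.6 and 456.6 CPM, a ratio of 17.9. uniq_3557524, uniq_1214700 and uniq_4017871 stood between 7.24 and 26.0 CPM in the immature and between 223 and 406.3 CPM in the mature libraries, with ratios of 18.4 to 20.2. Without immature replicate 2, the highest immature library for all 6 leading members, their ratios lay between 26.7 and 34.9, where they lay between 17.9 and 20.2 with all libraries.

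The 154 members called higher in immature testis were called so with both scalings. They held 42.2%, 30.1% and 20.7% of member reads in the immature and 1.13% to 1.52% in the mature libraries. Of these, 57 matched a structured RNA, a number that the choice of the sequences for matching favours. Another 22 had first 25 nt within 2 mismatches of the family of uniq_4595452. uniq_2669417, the 18S rRNA end, stood at 269.2, 334.8 and 429.4 CPM in the immature and 76.8, 69.2 and 69.0 CPM in the mature libraries, with a log2 fold change of -2.26 ± 0.695 (SE, edgeR quasi-likelihood, Benjamini-Hochberg adjusted p = 0.00122, and 9.9e-39 to 0.0128 over the other settings).

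The call of uniq_4708970 lay close to the threshold, with a log2 fold change of -1.45 ± 0.733 (SE, edgeR quasi-likelihood, Benjamini-Hochberg adjusted p = 0.0496). It was lost without immature replicate 3 and without mature replicate 1, 2 or 3, with adjusted p from 0.0528 to 0.165 in edgeR. It was also lost with the replicate number as a block (adjusted p = 0.0631) and with the filter lowered to 6 reads in all (adjusted p = 0.103). With TMM factors its log2 fold change was -4.07. uniq_4708991 went the other way with table totals, at 1.97 ± 0.739, and stood at -0.56 ± 0.616 with TMM factors, so its direction turned with the scaling and its call was lost.

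The 3 members on the stem of uniq_4595452 differed only in their last base and were each higher in immature testis. uniq_4595452, which ends in C, stood at 850.9, 432.4 and 469.8 CPM in the immature and 52.7, 69.2 and 47.0 CPM in the mature libraries. uniq_4595443, which ends in G, stood at 338.6, 328.9 and 303.6 CPM against 36.7, 61.0 and 40.9 CPM, and uniq_4595455, which ends in A, at 369, 289.7 and 307.7 CPM against 33.3, 53.6 and 28.1 CPM. Each immature library lay above each mature one, with ratios of 10.4, 7.01 and 8.4. All 3 were called with table totals and with TMM factors. The log2 fold change of uniq_4595452 was -3.38 ± 0.737 (SE, edgeR quasi-likelihood, Benjamini-Hochberg adjusted p = 8.62e-06, and 2.85e-20 to 0.00116 over the other settings).

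The same stem ending in U, and the stem itself at 27 to 30 nt, were not among the sequences analysed here. Read against that U-ended form, with positions counted from 1 at the 5′ end, the 3 members are T31C, T31G and T31A. Substitutions inside the stem were found too. Of 90 possible single changes at positions 1 to 30, 63 were in the table and 62 of these were members. They summed to 884.9, 265.8 and 268.8 CPM in the immature and 37.0, 39.4 and 33.6 CPM in the mature libraries. The 3 changes at the last position summed to 1559, 1051 and 1081 CPM against 122.7, 183.8 and 116 CPM.

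One of the inner changes stood out in 1 library. uniq_5223550 (T4G) had 388 reads, or 280.7 CPM, in immature replicate 1, where other inner changes such as A29G (uniq_5123232) reached 56.4 CPM and T4C (uniq_3741609) 45.6 CPM. In the other libraries it had 1, 0, 2, 1 and 1 reads, so immature replicates 2 and 3 lay at or below the floor of 3 reads, which is 1.28 and 2.05 CPM there. Without it, the inner changes in immature replicate 1 would still have been the highest of the 6 libraries. It passed none of the filters except the lowest, of 6 reads in all, where edgeR's quasi-likelihood test gave a Benjamini-Hochberg adjusted p of 0.000287 that rested on this 1 library. uniq_72397, the other immature member shown without a structured match, stood at 69.5, 120.6 and 65.0 CPM in the immature and 13.1, 23.1 and 15.8 CPM in the mature libraries, a ratio of 4.91.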

How the data were processed

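Small RNA libraries came from immature testis (3) and mature testis (3), and the groups were taken from the sample titles. The authors deposited 1 table of whole-number read counts per distinct sequence of 25 to 32 nt, with no normalization visible in the values, per the file headers. Libraries were made by ligating adapters to both ends of small RNAs, with a gel cut around the size of small RNAs that can limit the longest reads, per the labels' protocols. Bowtie was used, per the submitters' processing notes, but its version and the genome build were not given in the sources used here. Nor was the definition of a piRNA. The name of the deposited table presents its entries as piRNAs not recorded before, while any removal of known RNAs was not described. All 6 columns were used, and 0 rows lacked a sequence.

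Row identifiers are not consecutive, so table totals are not sequencing depth. The limit that 0 reads leave was set at 3 reads, equal to 1.28 to 2.17 CPM in the immature and 0.659 to 0.744 CPM in the mature libraries. The 95% Wilson intervals reached at most 0.035 percentage points to either side for the members' share of the table, 0.415 for shares of member reads, 0.532 without structured matches and 1.85 for the last bases compared with a longer sequence. Without molecular identifiers reads may repeat a molecule, and these limits hold for counting error only. Of the members, 69.7% were read once in all libraries together, against 77.0% of the table, and 1590 were found in all 6 libraries.

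Python 3.11.15 with numpy 2.4.6, pandas 2.3.3 and scipy 1.17.1 computed shares, families, overlaps and exact permutation tests over libraries. R 4.3.3 with edgeR 4.0.16 tested counts by quasi-likelihood after filterByExpr, with table totals as library sizes, and TMM and upper quartile factors, DESeq2 1.42.0 and other filters as alternatives. The TMM factors were 0.36 to 0.442 in the immature and 2.38 to 2.62 in the mature libraries. Standard errors of log2 fold changes were derived from the quasi-likelihood F statistics. The computations were tested on simulated data. Those for edgeR held far fewer changed sequences than were called here. Named members are the 8 most abundant in each group, the 6 most abundant immature ones without a structured match and the 6 leading ones called in each direction with both scalings. The 3 largest 5′ families per group were also named, and further members were picked after their values were seen. No genome or tRNA and rRNA reference was used, so no member was placed in the genome, and structured RNAs were recognised from their conserved sequences. Of the 5 sequences used for this, 1 is not reported here by itself and counts only in the sums. The members and lists were chosen with earlier results of these data known. Between libraries that share a replicate number, deviations from the group means correlated at 0.038, -0.085 and 0.01, so the numbers were not taken to pair libraries.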

Additional observations from a re-analysis of the deposited data

How the results depend on the processing

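The members' share of table reads and of reads with U at position 1 and no A at position 10, the share with a shorter 5′ relative and the structured share kept their direction under the alternatives run for them, with differences of 1.64 (32 nt alone) to 10.6, 12.3 to 16.0, 6.82 to 29.8 and -33.0 to -20.7 percentage points, mature minus immature. Leaving out structured matches reversed the sign of the 32 nt share (-1.01 points), G (2.21) and U (-4.28) at position 10, families peaking at 31 or 32 nt (1.49, and 1.51 when thinned as well), the share of the 100 leading members (2.0) and the group difference in the 10 nt excess with any partner (5.31). With each distinct sequence counted once, U at position 10 gave -1.21 points. The mature minus immature difference in the 10 nt excess with any partner, itself -11.6 and -12.7 points on average in the immature and mature libraries, was -1.02 points with all libraries, 0.634 when thinned and -6.81 to 5.82 when 1 library was left out, positive without immature replicate 2 or mature replicate 1. Distinct members at equal reads differed by -2527, by 99900 when not thinned, by 4058 without sequences read once and by -4745 to 341.3 when 1 library was left out, positive without immature replicate 3.

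Members called higher in mature testis numbered 527 with TMM, 2538 with upper quartile factors and 785 with DESeq2. These were 12.8%, 61.7% and 19.1% of the members tested, where 8.41%, 43.5% and 12.7% of all sequences tested were called so. Those called higher in immature testis numbered 197, 186 and 194, or 4.79%, 4.52% and 4.71%, where all sequences tested gave 21.9%, 21.5% and 21.8%. The stricter filter of 10 CPM in 3 libraries gave 1206 and 40, the filter of 6 reads in all 14679 and 903, and thinning 1710 and 60, with 1259, 34145 and 1790 members tested and 81.2% and 17.9%, 31.2% and 18.1%, and 79.3% and 19.2% of all sequences tested called so. Leaving out 1 library gave 3896 to 3905 and 127 to 155 (76.8% to 77.6% and 19.8% to 20.4% of all sequences tested). With the replicate number as a block the counts were 3888 and 129 (76.3% and 19.8%), and the block also lost the call of uniq_4708970. The log2 fold changes of uniq_4072286 (-0.31 and -0.46) and uniq_4708991 (-0.56 and -0.34) reversed with TMM factors and DESeq2, and uniq_4588488 (-0.25) with TMM factors. That of uniq_3181825 was -1.85 with TMM, -1.2 with upper quartile factors and -0.53 to 2.44 when 1 library was left out, negative without mature replicate 1. The call of uniq_4072286 was lost without mature replicate 1 (edgeR adjusted p = 0.0818). The causes of these changes were not tested. The planned placement in a genome was not run. Alternatives that limited partners to those without U at position 1 or combined thinning with leaving out structured matches were chosen after seeing the data. Asking for 10 reads in the longer sequence, also chosen then, put the share of 31 nt member reads with another last base at 35.3% to 41.4% in the immature and 37.7% to 39.7% in the mature libraries, against 21.0% to 28.7% and 23.9% to 26.8% at 30 nt.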

Other observations

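Structured matches were also frequent outside the members. Sequences of 31 to 32 nt that did not begin with U made up 6.59%, 12.2% and 7.79% of table reads in the immature and 2.97%, 2.09% and 1.97% in the mature libraries. Without structured matches they made up 1.57%, 1.34% and 1.4% against 1.66%, 1.93% and 1.69%, so that the order of the group means turned. RNY4 matches, from 5 members, held 1.1% of member reads in immature replicate 1 and 0.0528% to 0.159% in the other libraries. Of the members, 260780 were read in mature libraries only, 64204 in immature libraries only and 27572 in both groups, at unequal depths. Of all members, 69.7% were read once and so lie in 1 group by construction. The same split over all sequences is not given here, so these counts show nothing particular to the members.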
